A study of Chrysemys picta and Apalone spinifera with 20 samples.

Results

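The genes described here formed a set of 200 in embryos of the painted turtle Chrysemys picta, chosen because their RNA was higher at 31 °C than at 26 °C at stage 9, lower at stages 12 and 15, and higher again at stage 22. They were selected on measured values, from the 8687 genes, of 13940 in the Chrysemys table, that had 50 or more counts in all 10 Chrysemys libraries (the comparison genes below). Each count was divided by its library's 75th percentile and multiplied by 1000 (the scaled count), and differences were taken as log2(scaled count + 10) at 31 °C minus 26 °C. The score of a gene was the smallest of its 4 differences at stages 9, 12, 15 and 22, signed so that the described direction was positive, and the 200 highest scores gave the members. The score was above 0 in 1581 genes. Because these 4 Chrysemys differences chose the members, they are given below as a description and were not tested. Stage 19 of Chrysemys had a part in the choice only through the minimum of 50 counts. No library of the spiny softshell turtle Apalone spinifera had a part in it.

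Eggs of both species were incubated at 26 °C or 31 °C, in Chrysemys the male-producing (MPT) and the female-producing (FPT) temperature. The sex of Apalone follows its chromosomes. Its embryos were not sexed, so a difference in sex between its pools cannot be told apart from one of temperature. RNA came from trunks at stage 9, from adrenal-kidney-gonad complexes (AKGs) at stages 12 and 15, and from gonads at stages 19 and 22. Each species, stage and temperature gave 1 library, made from 1 pool of 10 Chrysemys embryos or of 5 Apalone embryos, so that there were 20 libraries and no replicate of any group. A stage was reached after fewer days at 31 °C than at 26 °C, and the tissue changed between stages, so stage and tissue cannot be told apart. In such bulk RNA, a difference in the number of cells of a type and a difference in RNA per cell cannot be told apart either.

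The largest groups of known function among the members were parts of the machines that make proteins and energy. Cytosolic ribosomes, built from ribosomal RNA and ribosomal proteins of a small (RPS) and a large (RPL) subunit, translate nuclear messages, and mitochondria hold ribosomes of their own (MRPS and MRPL proteins). Complex I, the NADH dehydrogenase of the inner mitochondrial membrane with its NDUF subunits, passes electrons into the respiratory chain and pumps protons, which ATP synthase uses to make ATP. Another group, put together largely after the values were seen, held genes linked to red blood cells. Reptilian red cells keep their nucleus, and embryos make hemoglobins from alpha-type and beta-type chains whose use shifts during development. In birds, the pi chain is an embryonic alpha-type chain and epsilon an embryonic beta-type chain. The alpha-type chains alpha-A and alpha-D are found in later red cells, though not in these alone.

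A symbol could be given to 126 of the 200 members, a description or locus number alone to 30, and neither to 44. Total counts ranged from 11610098 to 24606646 in the Chrysemys libraries and from 5544730 to 9501484 in those of Apalone, whose reads were counted on Chrysemys genes. Markers of other tissues differed between temperatures, most in the gonad libraries but at other stages too. The summed scaled counts of 17 muscle markers over the 5 stages of Chrysemys, from the earliest to the latest, came to 23962, 57902, 81025, 16783 and 15036 at 26 °C and to 36725, 54029, 82236, 66862 and 66084 at 31 °C, so that the 31 °C gonads held about as much as the AKGs and the 26 °C gonads less. The 28 gonad markers summed to 12048, 11669, 11855, 29809.8 and 64064 at 26 °C and 11300.0, 12096, 13886, 20879.8 and 15614 at 31 °C, with the stage 22 gonads at 31 °C far below those at 26 °C. The 7 blood markers, which include the member HEMGN, summed to 4613, 4002, 4454, 7727 and 6262 at 26 °C and 5690.3, 3607, 4282, 16308 and 14054 at 31 °C, and the 6 without HEMGN to 4150.4, 3067, 3164, 6350.3 and 5470.4 and 4458, 3073, 3604, 13439.9 and 10459. The 6 were higher at 31 °C in the gonads, level at stage 12 and not lower at stage 15. No muscle or blood marker was at 0 in any Chrysemys library. The 10 cartilage and bone markers summed to 22988, 19683, 38133, 10631 and 20501 at 26 °C and 20940.3, 25038, 66707, 8290.3 and 3706 at 31 °C, higher at 31 °C in the AKGs and lower at the other stages. The 9 liver, gut and yolk markers summed to 61784, 8709.5, 12667, 19929.8 and 11259.6 and 37093, 6919, 5688, 13674 and 20796, and the 5 adrenal markers differed most at stage 22, with 5578 at 26 °C and 2629 at 31 °C. The 14 kidney markers summed to 3777, 7612, 13395, 43254 and 43555 at 26 °C. At 31 °C they came to 2822, 7512, 21295, 33803.5 and 53478.5, so the gonad libraries were the highest at each temperature. At stage 22 the 23 neuron markers came to 4409 at 26 °C and 10408 at 31 °C. The 4 epithelium markers came to 25869 and 39719. The part of these markers in the results below was not tested.

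Seen by temperature, and as a description of the same values that chose them, the members followed a hump at 26 °C and varied less at 31 °C. Their median scaled count, in the order of the stages, was 1126, 2735, 3474, 1199.8 and 1194 at 26 °C, and 2014, 1864, 2298, 1798 and 1838 at 31 °C. The 2 AKG stages at 26 °C were thus the highest libraries and the stage 9 trunks at 26 °C the lowest, with all 5 libraries at 31 °C between them. The highest 26 °C median was 3.09 times the lowest, against 1.28 times at 31 °C, while the medians of the comparison genes stayed within 1.06 times at 26 °C and 1.01 times at 31 °C. Gene by gene, the range over the 5 stages was wider at 26 °C than at 31 °C in 178 of 200 members (89%), compared with 52.6% of the comparison genes. The members took 4.77%, 10.9%, 14.6%, 7.01% and 6.76% of all counts at 26 °C and 8.21%, 8.08%, 11%, 12.7% and 13.1% at 31 °C.

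**Figure D1:**
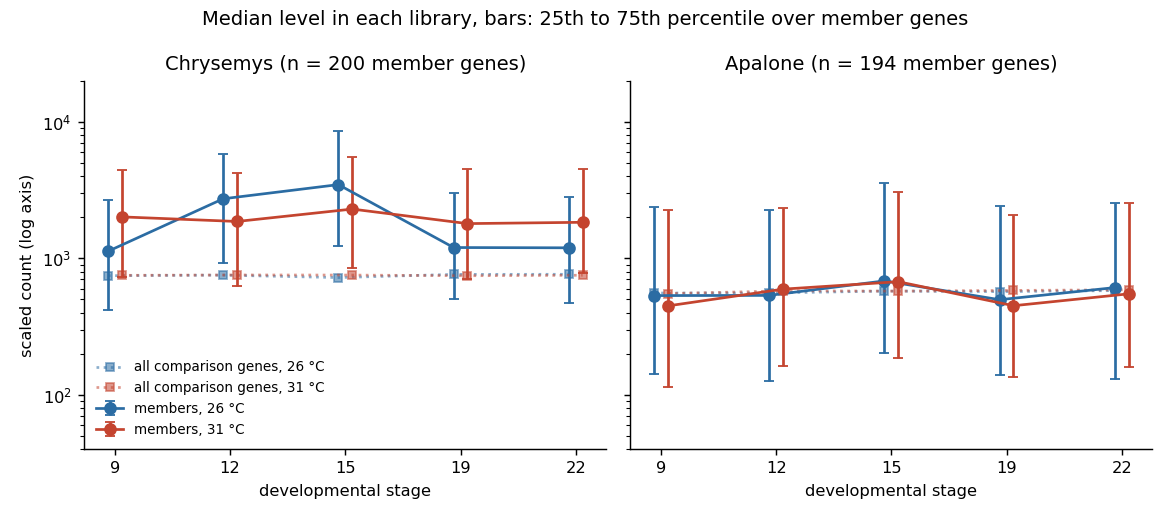
Median scaled count (log axis) of the members at each developmental stage, with 1 library per point, 26 °C in blue and 31 °C in red, bars from the 25th to the 75th percentile over genes, and the comparison genes as dotted lines. In Chrysemys the 26 °C line climbs from 1126 at stage 9 to 3474 at stage 15 and falls back, crossing the flatter 31 °C line on both sides, while in Apalone the lines lie close together, between 447 and 683.

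In the 4 contrasts that chose them, the members' median log2 differences were 0.75 in trunks, -0.52 and -0.50 in the earlier and later AKGs and 0.63 in the stage 22 gonads, beside 0.07, -0.00, -0.01 and 0.03 over the comparison genes. With library totals as the scale, the comparison genes themselves shifted to medians of -0.18 at stage 9 and -0.33 at stage 22, and the members' medians became 0.50 and 0.27. The stage 22 differences of members reached up to 3.41. The limit of 200 cut a continuous series of scores. Just inside it were TUBB1, a tubulin of platelets and related blood cells in mammals, with a score of 0.336, a gene with no name with 0.3355 and SPTSSA, a small subunit of serine palmitoyltransferase, with 0.3350. Just outside it were TMEM17, CCDC12 and MGST2 with 0.3346, 0.3341 and 0.3334. The opposite pattern, with all 4 differences of the other sign, was found in 1254 genes.

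Red-cell genes held the first places of the ranking, a hemoglobin gene and HEMGN. All 4 genes described as hemoglobin chains among the 8687 comparison genes were members, and they were singled out after their values were seen, since they carry locus numbers only. The alpha-D-like chain (LOC101935124, XM_005306157) had the highest score of all, 0.816. Its scaled counts, here and below from stage 9 to stage 22, measured 14902, 39236, 77232, 74912 and 59452 at 26 °C and 41903, 22276, 40442, 241991 and 260830.0 at 31 °C. At 31 °C it was thus highest in the 2 gonad libraries and well above 26 °C there, while its AKG libraries lay below those at 26 °C.

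The alpha-A-like chain (LOC101935401, XM_005306158) followed the same course, with 11833, 30602, 64503, 89983 and 77949 at 26 °C and 37325, 20730.0, 44873, 327352 and 359940.0 at 31 °C. So did the epsilon-like chain (LOC101953117, XM_005290008), with 46155, 94679, 156966, 140909 and 109311 at 26 °C and 128444, 67752, 87317, 456062 and 451288 at 31 °C. The pi-like chain (LOC101933106, XM_005306148) stood apart in its course over development. It measured 37793, 79214, 94577, 21898 and 1612 at 26 °C and 109375, 53932, 41574, 51765 and 17275 at 31 °C, so that its stage 22 gonads were the lowest library at each temperature, where the other 3 chains were at or near their highest at 31 °C. The level at stage 22 was lower at 26 °C than at 31 °C by a wide margin, and its stage 22 difference of 3.41 was the largest of any member, ahead of 3.10 for LOC101953401, which has no description. Near-identical chains can share reads, so the split between them is uncertain. Together the 4 genes took 0.778%, 1.37%, 1.92%, 2.16% and 1.66% of all counts at 26 °C and 1.86%, 0.995%, 1.13%, 5.78% and 5.68% at 31 °C, and the 95% Wilson intervals of these shares, which cover counting error only, were narrow (1.65% to 1.67% at 26 °C and 5.67% to 5.7% at 31 °C for stage 22).

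HEMGN (hemogen, a nuclear regulator of red-cell maturation, XM_005283506) had the highest score of the genes with a symbol, 0.798. It measured 463, 936, 1290.1, 1376 and 792 scaled counts at 26 °C and 1232, 534, 678, 2868 and 3594 at 31 °C, again highest in the 31 °C gonads. BLVRB, the biliverdin reductase B that is abundant in red cells, measured 1058, 2181, 3435, 2178 and 1969 at 26 °C and 2389, 1589, 2249, 6607 and 5373 at 31 °C. FTH1, the heavy chain of the iron store ferritin, which most cells make, measured 32302, 63471, 94614, 39532 and 32866 at 26 °C and 47949, 44584, 62957, 69525 and 97049 at 31 °C. Other members linked to red cells were RHCE, a Rh membrane protein, and UROS, uroporphyrinogen synthase of the heme pathway, whose stage 22 differences were 1.79 and 1.26. RHCE and UROS were named after their values were seen. The list of blood markers held 6 comparison genes, with HEMGN its only member. Their median differences were 0.00 at stage 12 and 0.11 at stage 15, so as a group they were not lower at 31 °C in the AKGs.

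**Figure D2:**
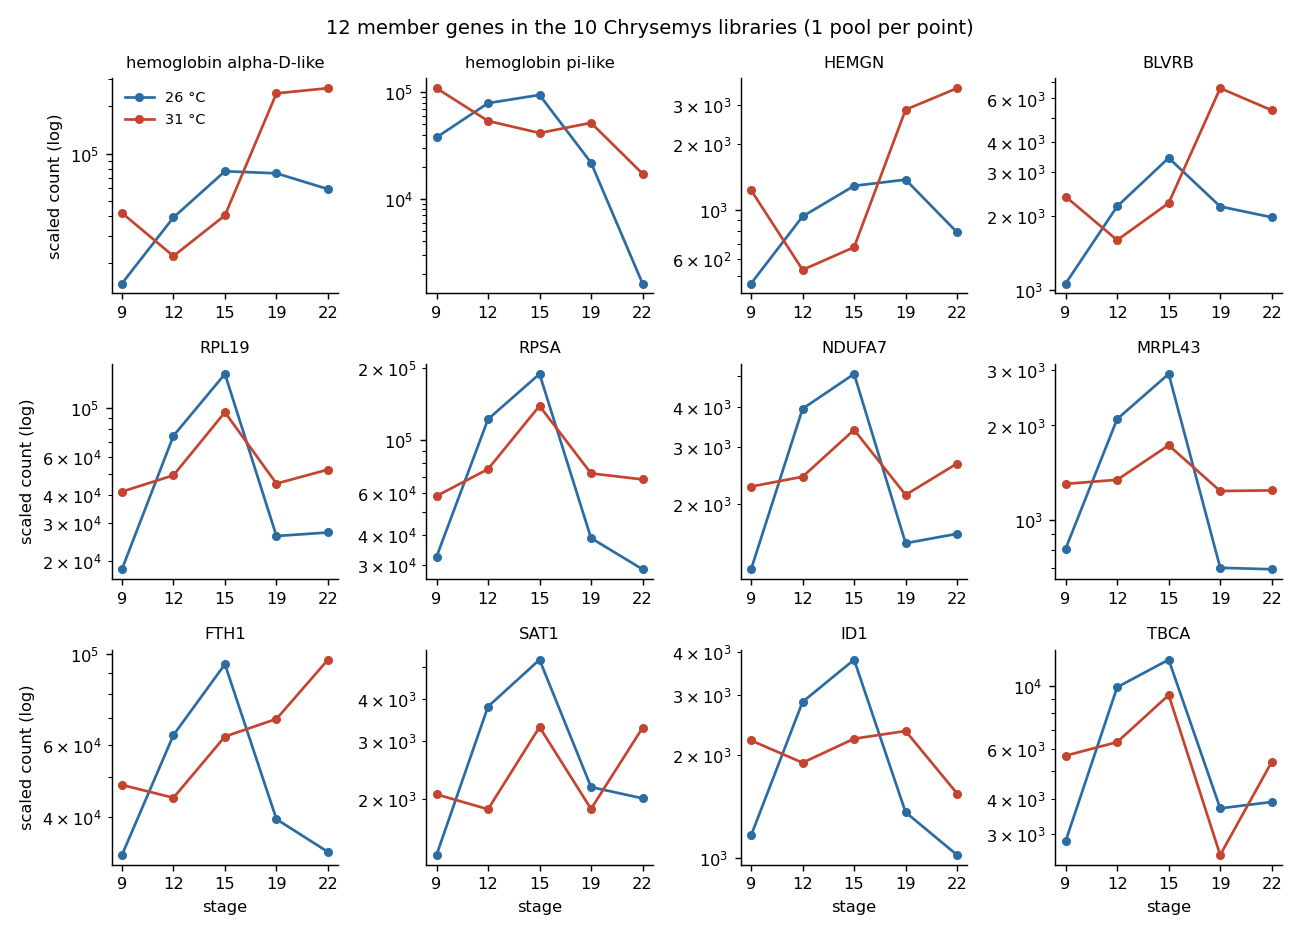
Scaled counts (log axes of different range) of 12 members in the 10 Chrysemys libraries against developmental stage, with 26 °C in blue, 31 °C in red and 1 pool per point. In each panel the lines cross between stages 9 and 12 and again after stage 15 (for SAT1 and TBCA after stage 19), and the hemoglobin alpha-D-like gene, HEMGN and BLVRB reach their highest levels in the 31 °C gonads, whereas RPL19, RPSA, NDUFA7 and MRPL43 peak in the 26 °C AKGs at stage 15.

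Proteins of the cytosolic ribosome were the largest family. By name, 61 comparison genes belonged to it and 21 of these (34.4%) were members, while members made up 2.3% of all comparison genes. The family was put together after the values were seen. A list of ribosomal proteins compiled from general knowledge held 35 comparison genes, of which 15 were members. Among members of the large subunit were RPL8, RPL10, RPL15, RPL19, RPL24, RPL27, RPL31, RPL36, RPL37 and the stalk protein RPLP2, and of the small subunit RPSA, RPS12, RPS13, RPS16, RPS20 and RPS26. RPL19 (XM_005301824) led them with a score of 0.580. Its scaled counts were 18413, 74812, 143290.0, 26110.2 and 27098 at stages 9 to 22 of 26 °C and 41626, 49399, 95829, 45293 and 52464 at 31 °C, with the highest library at stage 15 of 26 °C and the lowest at stage 9 of 26 °C.

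RPSA, a small-subunit protein also known as the laminin receptor, measured 32393, 122236, 189235, 38816 and 28730.1 at 26 °C and 58257, 75519.6, 139024, 72481 and 68397 at 31 °C. RPL10 differed from these in the gonads. It measured 24415, 58045, 88059, 29916 and 28247 at 26 °C and 37021, 40196, 60501, 72355 and 53672 at 31 °C, and of its 31 °C libraries the stage 19 gonads were highest, not the AKGs. Over all 61 genes of the family, the median log2 differences at the 5 stages were 1.09, -0.37, -0.23, 0.80 and 0.89, and 46 of 61 had a score above 0, as did 1581 of all 8687 comparison genes. The 40 that were not members had medians of 1.08, -0.25, -0.16 and 0.90 at stages 9, 12, 15 and 22, though 11 of the 40 were higher at 31 °C at stage 15. The family took 5.7%, 14.4%, 18.6%, 7.64% and 8.34% of all counts at 26 °C and 10.2%, 11.9%, 17%, 11.1% and 12.4% at 31 °C. Reads from processed copies of such genes cannot be told apart from those of the genes themselves.

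**Figure D3:**
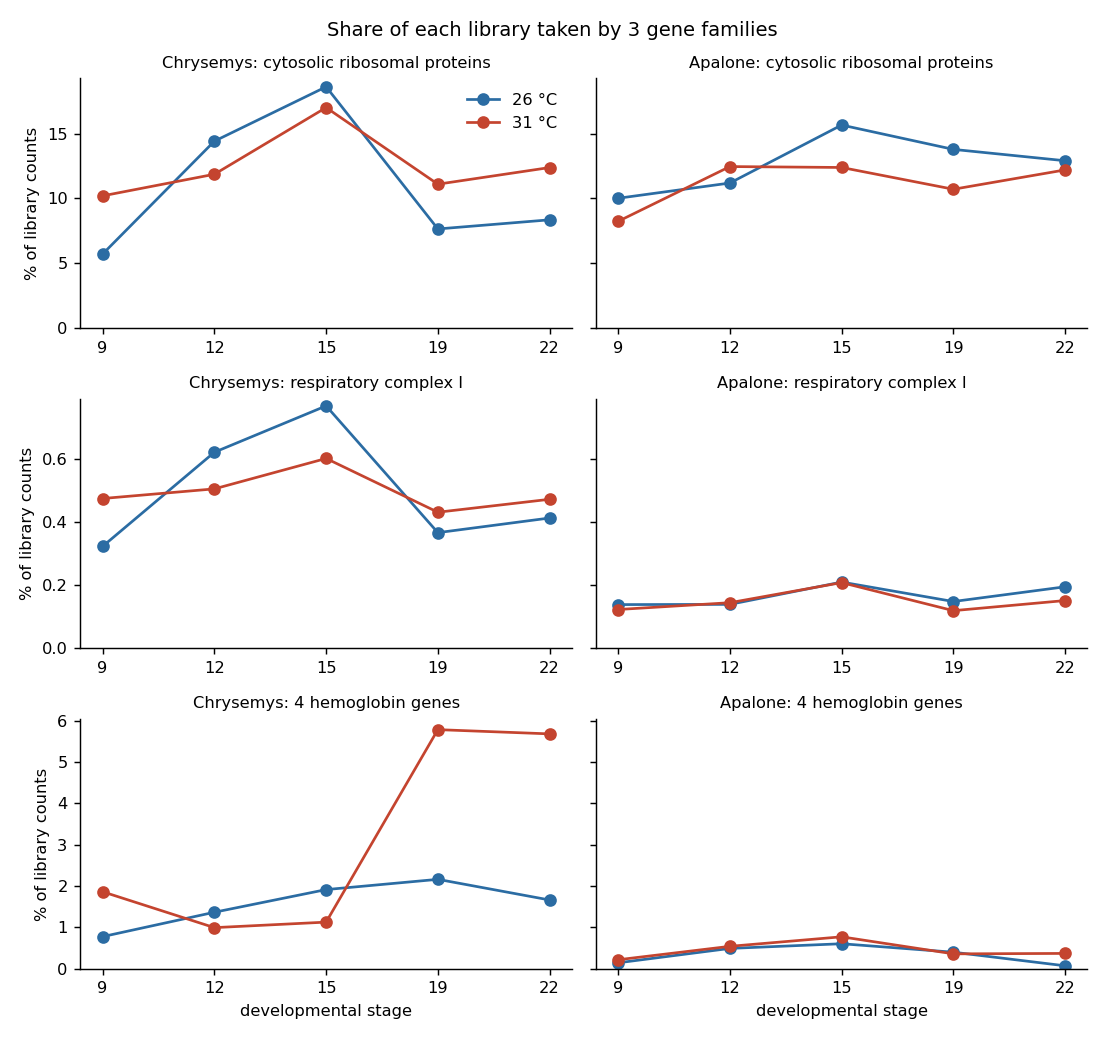
Percent of all counts of a library that fell on the comparison genes of 3 families, in Chrysemys (left) and Apalone (right), against developmental stage, with 1 library per point, 26 °C in blue and 31 °C in red. In Chrysemys each family is higher at 31 °C at stages 9, 19 and 22 and lower at stages 12 and 15, and the hemoglobin share at 31 °C climbs to 5.78% at stage 19, whereas in Apalone the ribosomal share is higher at 31 °C at stage 12 alone.

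Complex I was the family with the highest proportion of members after the hemoglobins, with 13 of 28 comparison genes (46.4%) and a score above 0 in 27. The members were NDUFA7, NDUFA13, NDUFAB1, NDUFB1, NDUFB3, NDUFB4, NDUFB6, NDUFB7, NDUFB9, NDUFS3, NDUFS7, NDUFS8 and NDUFV2, which include iron-sulfur core subunits (NDUFS7 and NDUFS8), the flavoprotein subunit NDUFV2 and many accessory subunits. NDUFA7 (XM_005283787) measured 1253, 3945, 5059, 1509 and 1614 scaled counts at 26 °C and 2262, 2427, 3393, 2132 and 2667 at 31 °C. NDUFS8 measured 3383, 6519, 9747, 3366 and 2851 at 26 °C and 4775, 4623, 5398, 5812 and 4504 at 31 °C. In both, the 26 °C AKGs were the highest libraries. NDUFB6 measured 1349, 3424, 4120.4, 1411 and 1686 at 26 °C and 2438, 2385, 2778, 2481 and 2455 at 31 °C, nearly level at 31 °C. The 28 genes had median differences of 0.85, -0.41, -0.46, 0.52 and 0.52 at the 5 stages. This family and those of ATP synthase, the mitochondrial ribosome and the proteasome were also put together after the values were seen. A list of the respiratory chain with ATP synthase, compiled from general knowledge, held 31 comparison genes, of which 12 were members. Such lists gave 3 of 23 for the mitochondrial ribosome and 3 of 21 for the proteasome.

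ATP synthase gave 4 members of 15 comparison genes, ATP5MC1 and ATP5MC3 of the membrane ring and ATP5PF and ATP5PO of the stalk. The family had medians of 0.79, -0.34, -0.42, 0.40 and 0.53. ATP5PO measured 3474, 9305, 14549, 4527 and 4851 at 26 °C and 6017, 6821, 9344, 5009 and 6584 at 31 °C. Mitochondrial ribosomes gave 7 members of 36 comparison genes, MRPL17, MRPL21, MRPL23, MRPL43, MRPL57, MRPS24 and MRPS25, with family medians of 0.69, -0.22, -0.33, 0.38 and 0.56. With library totals as the scale, the medians at stages 19 and 22 became 0.22 and 0.16 for complex I, 0.10 and 0.17 for ATP synthase, and 0.083 and 0.20 for the mitochondrial ribosome. MRPL43 (XM_005303473) measured 808, 2098, 2923, 702 and 694 at 26 °C and 1301, 1341, 1729, 1235 and 1240.3 at 31 °C, and MRPS24 measured 749, 1921, 3377, 829.8 and 848 at 26 °C and 1359.7, 1290.3, 2347, 1868 and 1873 at 31 °C. Both were highest in the stage 15 AKGs of 26 °C and lowest in trunks or gonads of 26 °C.

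Further members act in the same organelle. MICOS13, of the complex that shapes the folds of the inner membrane, measured 1017, 3459.5, 6327, 1518 and 1704 at 26 °C and 2172, 2274, 4499, 2264 and 2970.0 at 31 °C. TIMM8B, a chaperone of the space between the membranes, measured 901, 2195, 2571, 893 and 1003 at 26 °C and 1532, 1509, 1827, 1155 and 1504 at 31 °C. SMDT1, a part of the mitochondrial calcium uniporter, measured 849.6, 1902, 2444, 825 and 848 at 26 °C and 1549, 1358, 1650.4, 1214 and 1236 at 31 °C. Each was lowest in trunks or gonads at 26 °C and highest in the stage 15 AKGs at 26 °C. TIMM10, TIMM17B, MICOS10, the pyruvate carrier subunit MPC2 and a gene described as like a mitochondrial cytochrome c oxidase subunit (LOC101950851) were also members. These were singled out after their values were seen. With library totals as the scale, the stage 22 differences of TIMM17B and MPC2, both 0.34, became -0.02. Lists of the citric acid cycle (15 comparison genes) and of glycolysis and hypoxia (24) held no member, which at 2.3% of all comparison genes is close to the background share.

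The proteasome, which degrades ubiquitin-tagged proteins, gave 4 members of 26 comparison genes, the core subunits PSMA1, PSMB2 and PSMB3 and a beta-subunit-like gene. PSMB3 measured 3369, 7990.5, 11682, 2843 and 2982 scaled counts at 26 °C and 6193, 6196, 8046, 3836 and 4052 at 31 °C. The family had medians of 0.46, -0.36 and -0.47 at stages 9, 12 and 15, and its stage 22 median of 0.24 became -0.12 with library totals as the scale. Members in RNA processing were LSM5, a ring protein bound to the U-rich spliceosomal RNAs, SNRPD3, a core protein of spliceosomal particles, and PRPF4, of the tri-snRNP particle, 3 of 37 listed. LSM5 measured 617, 1664, 1605, 469 and 470.4 at 26 °C and 1178, 1052, 1125, 425 and 665 at 31 °C. In ribosome assembly and translation, the members were NOP10, of the particles that modify ribosomal RNA, EMG1, a methyltransferase of the small subunit, and the initiation factor EIF3G. EMG1 measured 2121, 4369, 4870.4, 1464 and 1244 at 26 °C and 3578, 3138, 3366, 2501 and 1974 at 31 °C. UFC1, which conjugates the ubiquitin-like protein UFM1, POLR2I of RNA polymerase II, VPS29 of the retromer and MYL6, a myosin light chain, were each the 1 member of their list.

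Other members with high scores were not tied to a family. SAT1, the enzyme that acetylates spermidine and spermine for their breakdown, measured 1357, 3798, 5256, 2174 and 2010.3 at 26 °C and 2067, 1864, 3295, 1868 and 3279 at 31 °C, and its 31 °C AKG value at stage 12 was about as low as its 31 °C gonad value at stage 19. ID1, a helix-loop-helix inhibitor induced by BMP signals, measured 1162, 2859.5, 3799, 1358 and 1018 at 26 °C and 2204, 1897, 2230.3, 2349 and 1541 at 31 °C. S100A6, a calcium-binding protein, measured 4039.7, 19386, 36685, 9566 and 9000.0 at 26 °C and 8649, 9861, 25485, 19232 and 21071 at 31 °C. The trunks at 26 °C were the lowest libraries of SAT1 and S100A6, and the stage 22 gonads at 26 °C that of ID1. TM4SF4, a tetraspanin-like membrane protein, measured 101, 848, 994, 958 and 794 at 26 °C and 265, 567, 393, 789 and 1451 at 31 °C. TRAPPC2L, a vesicle-tethering subunit, measured 296, 1421, 1753, 408 and 512 at 26 °C and 785, 761, 1149, 411 and 758 at 31 °C. ID1 was the only member in a list of 27 comparison genes of TGF-beta, BMP and activin signalling.

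CCDC101, a protein of the SAGA complex that modifies chromatin, had the second highest score of the genes with a symbol, 0.702, with 481, 1457, 2454, 870.4 and 769 scaled counts at 26 °C and 789, 866, 1295, 1692 and 1742 at 31 °C. SELENOH, a selenoprotein of the nucleolus, measured 1906, 4859.5, 7444, 1706 and 2087 at 26 °C and 3582, 3492, 4366, 3287 and 3543 at 31 °C. UFC1 measured 1526, 4433, 5985, 2302 and 2226 at 26 °C and 2514, 2708, 4301, 4032 and 3597 at 31 °C. In all 3, the stage 15 AKGs of 26 °C were the highest library. NQO1, a quinone reductase of the oxidative stress response, was named after its values were seen, because its stage 22 difference of 2.18 was among the widest. It measured 286, 326, 451, 169 and 77.1 at 26 °C and 368, 242, 219.5, 155 and 384 at 31 °C, and its stage 19 difference was -0.11. The 26 °C library of stage 22 held 60 counts of NQO1, close to the minimum of 50. The members also held 7 non-coding transcripts.

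Of 46 gene lists compiled from general knowledge, 33 held no member. These included cell cycle and mitosis (0 of 23 comparison genes), DNA replication (0 of 20), heat shock and chaperones (0 of 29), extracellular matrix and collagens (0 of 38), cell adhesion (0 of 27), Wnt signalling (0 of 27), chromatin modifiers (0 of 55) and axon guidance (0 of 28). With members at 2.3% of the comparison genes, 0 in lists of these sizes is close to the background share. The lists with 2 or more members were those of the cytosolic ribosome, the mitochondrial ribosome, the respiratory chain with ATP synthase, the proteasome and the spliceosome. Among the 11 lists of cell type markers, that of blood held HEMGN (1 of 6). The other 10 held none, including muscle (0 of 13), gonad (0 of 14) and kidney (0 of 11).

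Stage 19, which the score had not used, shows whether the members differed in the earlier gonad libraries too. They stood higher at 31 °C as a group. The median log2 difference was 0.62 (25th to 75th percentile 0.17 to 0.92), with 164 of 200 (82%) above 0, beside -0.02 and 48.8% over the comparison genes. The 2-sided Fisher's exact test on read pairs, with Benjamini-Hochberg adjustment over 13753 genes, called 107 members higher at 31 °C at an adjusted p under 1e-10 and 1 lower. Over all comparison genes 15.7% were called higher and 10.2% lower. The members' median level was above that of the comparison genes in every Chrysemys library, and deeper counts pass such a test more easily. The test compares 2 libraries and not 2 temperatures, since the spread between pools was not measured. The muscle markers summed to 16783 at 26 °C and 66862 at 31 °C at this stage and the blood markers were higher at 31 °C too, and their part in these calls was not tested.

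All 4 hemoglobin genes and all 21 ribosomal proteins among the members were called higher at stage 19, as were 10 of 13 complex I members, 4 of 7 of the mitochondrial ribosome, 3 of 4 of the proteasome and 2 of 4 of ATP synthase. Without these families, 63 of the remaining 147 (42.9%) were called higher and the median was 0.53, a comparison added after the data were seen. Over whole families, 54 of 61 ribosomal proteins, 16 of 28 complex I genes and 13 of 36 mitochondrial ribosomal proteins were called higher, but 6 of 26 proteasome genes, with 6 called lower and a median of 0.03 that was below 0 with each of the other scalings. The widest differences among members with a symbol were those of S100A1, a calcium-binding protein abundant in heart and muscle, DPM3, a subunit of dolichol-phosphate mannose synthase, and BLVRB. S100A1 measured 129 scaled counts at 26 °C and 572 at 31 °C, a difference of 2.06 (Fisher's exact test, adjusted p = 1.8e-35). DPM3 measured 308 and 1047, a difference of 1.73. For BLVRB, 2178 and 6607 gave 1.60. DNLZ, a mitochondrial zinc-binding protein, and RAMP2, a membrane partner of the adrenomedullin receptor in vessels, followed with 1.37 and 1.35. HEMGN differed by 1.05 (adjusted p = 2.3e-59) and the alpha-D-like hemoglobin by 1.69.

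Not all members followed. TBCA, a tubulin-folding cofactor, was the 1 member called lower, with 3698 scaled counts at 26 °C and 2534 at 31 °C at stage 19, a difference of -0.54 (adjusted p = 5.1e-23). SAT1, TM4SF4, LSM5, PSMA1 and VPS29 had differences of -0.22, -0.28, -0.14, -0.15 and -0.08 and passed no call. UROS was lower at 31 °C too, without a call, and TRAPPC2L, at 0.01, was level. The median was 0.79 for ranks 1 to 50 and 0.54, 0.60 and 0.49 for the following groups of 50, and the next 200 genes outside the set had a median of 0.35, with 153 of 200 above 0. With library totals in place of the 75th percentile, the median of the comparison genes moved to -0.31 and that of the members to 0.34, and 143 members stayed above 0. MRPL57, NDUFV2, NDUFB9, ATP5PO, TRAPPC2L and RHCE were among 21 members whose small differences changed sign between scalings.

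**Figure D4:**
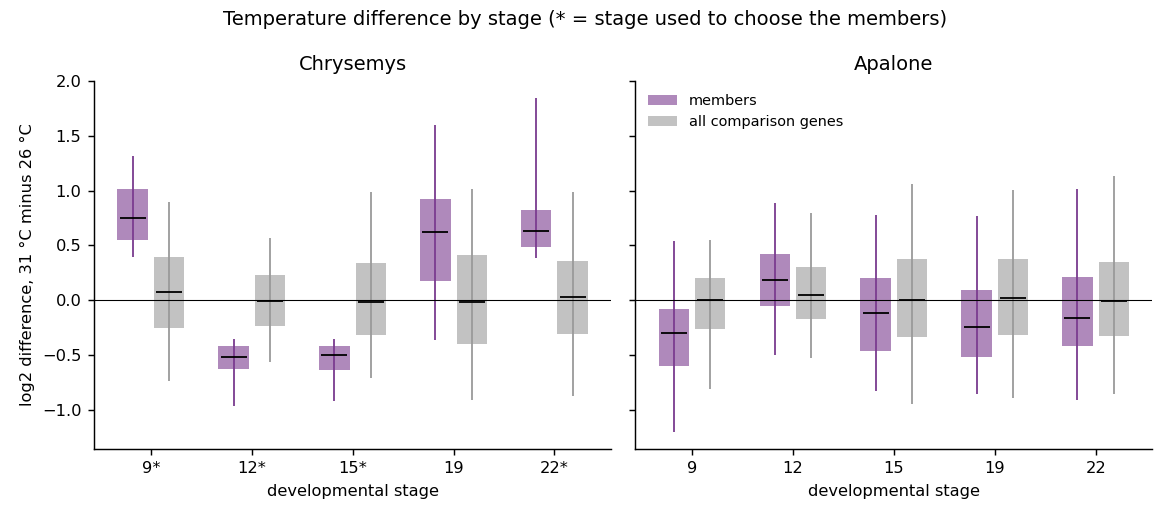
Log2 differences (31 °C minus 26 °C) at each stage in Chrysemys (left) and Apalone (right), for the members (purple) and the comparison genes (grey), with boxes from the 25th to the 75th percentile over genes, lines from the 5th to the 95th and black bars at the medians. The starred stages gave the score, and at stage 19, which did not, the median of the members is 0.62. In Apalone the medians are below 0 at all stages but stage 12.

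The same temperatures were applied to Apalone, where 194 of the 200 members had a row and 131 of these had 50 or more counts in all 10 libraries. The medians there did not follow the Chrysemys order. The median log2 differences of the members were -0.30, 0.19, -0.12, -0.24 and -0.16 from stage 9 to stage 22, beside 0.00, 0.05, 0.00, 0.02 and -0.01 over the 8569 comparison genes with a row. At stage 9, where Chrysemys members were higher at 31 °C, 150 of 194 (77.3%) were lower in Apalone, beside 48.9% of the comparison genes. At stage 12, where Chrysemys members were lower, 136 (70.1%) were higher, beside 55.4% of the comparison genes. The median scaled count was 533, 534, 683, 497 and 609.8 at 26 °C and 447, 594, 674, 449 and 549 at 31 °C, with the highest library at stage 15 at both temperatures. The highest median was 1.37 times the lowest at 26 °C and 1.51 times at 31 °C. In Chrysemys, whose values chose the members, these were 3.09 and 1.28 times.

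By Fisher's exact test on read pairs at an adjusted p under 1e-10, 26 members were called lower at 31 °C and 3 higher at stage 9 of Apalone, where 1.54% of the comparison genes were called lower and 0.993% higher. At stage 12, 24 were called higher and 0 lower, beside 2.31% and 1.09% of the comparison genes, and 12 members were lower at an unadjusted p under 0.05. Stage 15 gave 24 lower and 3 higher (2.81% and 2.38% of the comparison genes). Stage 19 gave 29 lower and 0 higher (4.48% and 2.69%), with 12 members higher at an unadjusted p under 0.05. Comparison genes were not counted at this unadjusted p at stage 12 or stage 19. Stage 22 gave 19 lower and 8 higher (4.13% and 2.3%). Marker sums of other tissues differed between these Apalone libraries too. Those of liver, gut and yolk (9 markers) were 94164 at 26 °C and 12659.6 at 31 °C at stage 15, and 112051 and 2851 at stage 19. Cartilage and bone markers came to 3507 and 32979 at stage 15, and germ cell markers to 4513 and 1856 at stage 19. Their part in the calls was not tested. At stage 19, 187 members were tested in both species. Of these, 24 (12.8%) were called higher in Chrysemys and lower in Apalone, beside 1.13% of the comparison genes. Called higher in both were 0, beside 1.18%. Of the 24, 19 were ribosomal proteins, a family of 61 genes that took 13.8% and 10.7% of the Apalone stage 19 counts at 26 °C and 31 °C. As in Chrysemys, deeper counts pass this test more easily.

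Ribosomal proteins made up most of these calls. Of 194 members, 24 (12.4%) were called lower at 2 or more Apalone stages and 7 (3.61%) higher, beside 3.14% and 2.36% of the comparison genes. Of the 24 called lower, 19 were ribosomal proteins, and of the 24 called higher at stage 12, 17 were. Over all 61 genes of the family the medians were -0.29, 0.25, -0.43, -0.45 and -0.19 at the 5 stages, and 46 of 61 were called lower at stage 15 and 46 at stage 19. RPS12 measured 73406, 81488, 136672, 120411 and 125451 scaled counts at 26 °C and 48079.8, 104419, 99418, 76991 and 90102 at 31 °C, lower at 31 °C at every stage but stage 12, with all 5 differences called. RPL36 had the same order and the same calls, with 7421, 9161, 18567, 13759.5 and 15067 at 26 °C and 5605, 11778, 13248, 8474 and 11087 at 31 °C. RPL24 measured 21649.5, 27270.2, 37112, 34139 and 32049 at 26 °C and 19113, 29705, 25383, 19716 and 24121 at 31 °C, and was called lower at stages 15, 19 and 22. RPL27 was called lower at stages 9 and 19 and higher at stage 12. RPSA measured 74640.2, 78762, 91261, 75133 and 63158 at 26 °C and 66500.0, 92350.4, 81794, 65842 and 76854 at 31 °C, and was called higher at stages 12 and 22 and lower at the others. The family took 10%, 11.2%, 15.7%, 13.8% and 12.9% of the Apalone counts at 26 °C and 8.22%, 12.4%, 12.4%, 10.7% and 12.2% at 31 °C, within a narrower range than in Chrysemys.

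Complex I had medians of -0.14, 0.19, -0.00, -0.32 and -0.26 in Apalone, of which that at stage 15 was above 0 with library totals. Of its members, NDUFAB1, the acyl carrier protein of mitochondria, measured 3481, 3476, 4963, 4006 and 5378 at 26 °C and 2971, 4043, 4929, 2163 and 3354 at 31 °C, and was called lower at stages 19 and 22 (adjusted p = 1.1e-22 and 3.8e-19). NDUFV2 was likewise called lower at both, with 6874, 6959.7, 12776, 7468 and 10000.0 at 26 °C and 6260.5, 6692, 10609.9, 4702 and 6204 at 31 °C. No complex I gene was called higher at any Apalone stage, and no mitochondrial ribosomal gene. The Apalone libraries held fewer counts than those of Chrysemys, although the paper lists more reads for Apalone. On simulated reads for stage 9 the test recovered 47 of 100 genes changed by 1 log2 unit. Smaller differences of such genes were thus often not detectable at these counts.

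The hemoglobin genes had medians of 0.43, 0.39, 0.27, -0.51 and 2.22 in Apalone at stages 9 to 22, above 0 at all but stage 19. This was not the Chrysemys order of stages. At each of stages 9, 12 and 15, 2 of 4 were called higher. At stage 19, 2 were called lower, and at stage 22 all 4 were called higher. The epsilon-like chain measured 6748, 24052, 39104, 27930.4 and 5732 at 26 °C and 8618, 31363, 44589, 21205 and 29723 at 31 °C, and was called higher at every stage but stage 19, where it was called lower. The pi-like chain measured 17678, 59189.5, 65858, 24671 and 762 at 26 °C and 28773, 63594, 83709, 27116 and 8835 at 31 °C. It peaked at stage 15 and fell by stage 22, to a level far lower at 26 °C than at 31 °C, and its stage 22 difference was 3.52 beside 3.41 in Chrysemys. The alpha-A-like chain measured 3042, 10936, 21358, 24044 and 7280.5 at 26 °C and 4303, 14470.1, 23234, 15595 and 30379 at 31 °C, lower at 31 °C at stage 19 alone. HEMGN was too low in Apalone to compare, at 18.7, 20.2, 89.6, 12.7 and 6.1 at 26 °C and 8.4, 25.6, 63.8, 32.6 and 68 at 31 °C, and its stage 22 difference had an adjusted p of 0.012 by Fisher's exact test. The 17 muscle markers summed to 47065, 67355, 20284, 20399 and 31183 in the 26 °C libraries and 49723, 92265, 48099, 19000.0 and 363019 in those at 31 °C, with the 31 °C library of stage 22 far above the others, and their part in the stage 22 calls was not tested. The 7 blood markers, which include HEMGN, summed to 1762, 2214, 3731, 2259 and 957 at 26 °C. At 31 °C they came to 1819, 1996, 2482, 2805 and 3631. These sums were lower at 31 °C at stages 12 and 15 and higher at stages 9, 19 and 22. The 6 comparison genes of that list had a median difference of 2.28 at stage 22, and their part in the calls was not tested either. FTH1 and MYL6 were also called higher at 2 stages, both at stages 12 and 22. FTH1 was called lower at the other 3 and MYL6 at stage 9.

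**Figure D5:**
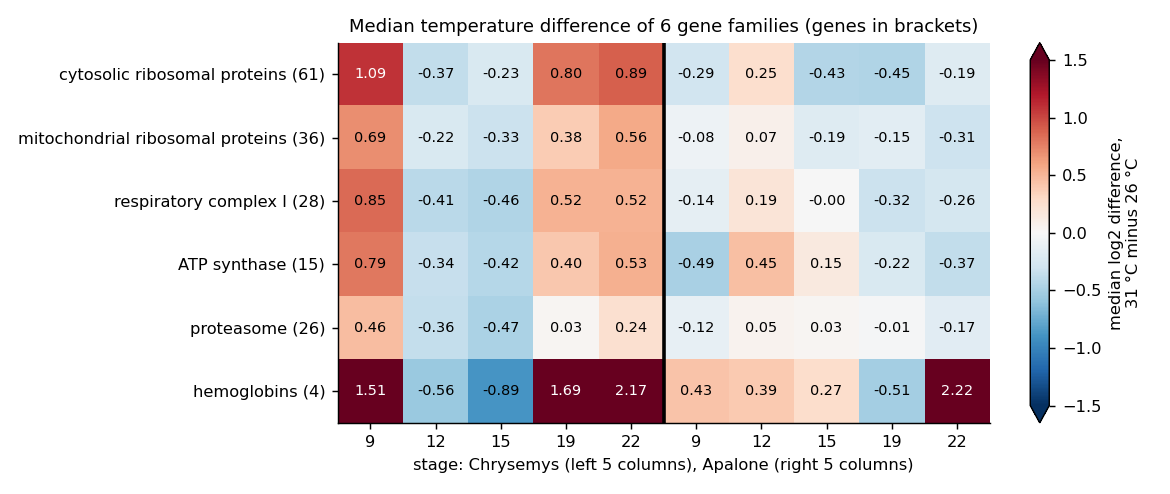
Median log2 difference (31 °C minus 26 °C, red above 0 and blue below) of all comparison genes in 6 families at each stage of Chrysemys (left 5 columns) and Apalone (right 5 columns), with the median printed in each cell. The first 4 families are above 0 at stages 9, 19 and 22 and below 0 at stages 12 and 15 of Chrysemys, as is the proteasome on this scale but not at stages 19 and 22 with library totals, and none has this order in Apalone, where the 4 hemoglobin genes reach 2.22 at stage 22.

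With the 5 stages as replicates, edgeR's quasi-likelihood test on the counts of all 10 Apalone libraries was fitted with a term that is positive at stages 9 and 22, negative at stages 12 and 15 and 0 at stage 19. No member of the 183 tested passed an adjusted p under 0.05, and no comparison gene did (0%). At an unadjusted p under 0.05 there were 20 members (10.9%) and 248 comparison genes (3%). Of these, 16 of the 20 members and 121 of the 248 comparison genes had coefficients below 0, opposite to the Chrysemys order. The median coefficient of the members was -0.10 and 122 of 183 (66.7%) were below 0, beside 0.01 and 47.6% over the comparison genes, a lean away from the Chrysemys order. DESeq2's Wald test also called 0 members, beside 0.0467% of the comparison genes. For the mean difference between temperatures over the stages, 0 members passed, beside 2 comparison genes (0.0242%), and 32 members (17.5%) had an unadjusted p under 0.05, close to the 16.8% of the comparison genes. Of these, 30 of 32 members and 657 of 1389 comparison genes were lower at 31 °C. The median coefficient was -0.11, with 120 of 183 below 0, beside 0.02 over the comparison genes. RPP40, a subunit of ribonuclease P, and EIF4EBP1, a repressor of translation initiation, were singled out after their values were seen, with coefficients of -0.64 and -0.58 (edgeR adjusted p = 0.21 and 0.22). DESeq2's Wald test called 5 of 145 members with an adjusted p for this mean difference (3.45%), close to the 3.26% of the comparison genes.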

How the data were processed

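RNA from 20 pools was sequenced as paired-end libraries and mapped by the authors to annotated Chrysemys genes with GSNAP. The authors deposited raw read counts per gene, made with HTSeq without regard to strand and without scaling. The submitters' processing notes also list Trimmomatic 0.27. The counts hold even numbers only, as if a pair of reads gave 2, and Fisher's tests used pairs, against library sizes set by the 75th percentile. These tests used scipy 1.17.1, and the Apalone models edgeR 4.0.16 on counts with TMM scaling and filterByExpr, with 3 residual degrees of freedom for the stage pattern and 4 for the mean difference, and DESeq2 1.42.0 as an alternative. Gene names came from a RefSeq table of another assembly, used for names alone, and from the study's gene descriptions.

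Members and lists were chosen with earlier results of these data known. Genes named were the 25 members with a symbol and the highest score, up to 6 members of each list, up to 5 called in each direction at Chrysemys stage 19 and at 2 or more Apalone stages, and the 3 genes on each side of the limit of 200. Some of these are not reported here. Others are said to be chosen after their values were seen. On simulated data for Chrysemys stage 19 (13612 genes), the test recovered 64 of 100 genes changed by 1 log2 unit and 91 of 100 changed by 2. Alternatives covered the scaling, the count minimum, the pseudocount, the threshold, the test and leaving out each stage.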

Additional observations from a re-analysis of the deposited data

Results flagged for a closer look

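At stage 19, the members as a group differed between temperatures in opposite directions in the 2 species. Their median log2 difference (31 °C minus 26 °C) was 0.62 in Chrysemys and -0.24 in Apalone. With 1 library for each species and temperature, the difference between species was not tested.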

How the results depend on the processing

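The choice of members depended most on the scoring, since 92 of the 200 stayed with the mean of the 4 signed differences in place of the smallest. It depended on the scaling too, with 138 of the 200 kept under library totals and 170 under TMM factors. At Chrysemys stage 19 the median stayed above 0 under every setting tried. Library totals gave 76 members higher in place of 107, 11 lower and a median of 0.34. An adjusted p under 0.05 gave 148 of 200 higher and 16 lower. Leaving out the 6 families, chosen after seeing the data, gave 63 higher of the remaining 147.

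In Apalone, deposited counts in place of read pairs gave 6 members higher and 43 lower at stage 9, 3 lower at stage 12, 2 higher at stage 19 and 32 lower at stage 22. An adjusted p under 0.05 gave 9 higher and 64 lower of 190 members tested at stage 9. At stage 12 it gave 64 higher and 6 lower of 191. Stage 15 gave 18 and 44 of 192, stage 19 gave 8 and 61 of 187, and stage 22 gave 17 and 56 of 191. Size factors of DESeq2 gave 5 higher at stage 9 and 2 lower at stage 12, and TMM factors 1 lower at stage 12. Library totals gave 3 lower at stage 12 and 2 higher at stage 19, with medians of 0.11, -0.032 and -0.13 at stages 12, 15 and 19. The median pattern coefficient was -0.011 without stage 12, -0.16 without stage 15 and -0.17 without stage 22, and that of the mean difference -0.063 without stage 9 and -0.19 without stage 12. DESeq2 called 5 members for the mean difference (3.45%, beside 3.26% of the comparison genes). For Fisher's tests, comparison genes were not counted under these settings, here or at Chrysemys stage 19, so no background share is given. The causes were not tested.

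No replicate number pairs the libraries, and the edgeR fit of the mean difference compared the temperatures within stages. The lower counts of Apalone, whose reads were counted on Chrysemys genes, limit detection there, and no result has a replicate within a stage.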
